A study of Homo sapiens with 6 samples.

Results

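The 40 genes described here repair DNA double-strand breaks and DNA interstrand crosslinks, and signal that such damage is present. They were taken by gene symbol from a named list of break sensors, checkpoint kinases, homologous recombination factors, Fanconi anaemia proteins and end-joining factors. All 40 were found among the 29122 genes of the deposited count table, where MRE11A is written as such. Polyadenylated RNA was sequenced from A549, an epithelial cell line grown out of a human lung carcinoma. Per the treatment protocol, there were 3 libraries of BCLAF1-depleted cells, stably transduced with a lentiviral short hairpin RNA against BCLAF1, and 3 of control cells with a hairpin against firefly luciferase, a gene that human cells lack. By that protocol all cells carried a lentivirus and a hairpin, while the titles of the depleted samples write siBCLAF1, the usual prefix for a small interfering RNA. The labels give neither the number of hairpins nor whether the cells were a pool or a clone, and do not say that replicates were separate cultures, so the p-values rest on a spread between libraries that may be technical.

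A double-strand break is sensed by the MRE11-RAD50-NBN complex, which activates the kinase ATM and its effector CHEK2, while single-stranded DNA activates ATR and its effector CHEK1 with the help of TOPBP1. Ends that are cut back are repaired by homologous recombination, which uses the sister chromatid in S and G2 phase, and ends that are not are joined by the Ku, DNA-PKcs and ligase IV machinery. The Fanconi core complex adds ubiquitin to the FANCD2-FANCI pair to start crosslink repair. BCLAF1, which acts in the nucleus in transcription and splicing, is known to associate with BRCA1 after DNA damage and to affect splicing of some repair transcripts.

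BCLAF1 itself was at 39.02, 35.7 and 53.1 CPM in the BCLAF1-depleted libraries, against 211, 199 and 203 CPM in the control libraries (log2 fold change -2.26 ± 0.16, adjusted p = 2.31e-05). CPM are read counts relative to library size, scaled by TMM, a trimmed-mean scaling between libraries. Totals ranged from 33409158 to 40820922 counts in the BCLAF1-depleted libraries and from 41019185 to 43928927 in the control libraries. A floor of 3 counts, which covers counting error only, equals 0.0683 to 0.0898 CPM. TMM factors were 0.795 to 1.05 in depleted and 1.076 to 1.096 in control libraries. The epithelial keratin genes KRT8 and KRT18 were at 14370 to 20750 CPM in depleted and 14990 to 16550 CPM in control libraries. KRT19 stayed below 1 CPM in every library, and the 5 epithelial markers summed to 32076 to 39109 CPM in depleted and 30213 to 32006 CPM in control libraries. Marker sums were 14.4 to 16.2 against 22.2 to 24.9 CPM for 5 fibroblast genes and 2.2 to 2.9 against 1.8 to 2.4 CPM for 5 endothelial genes (depleted against control). Of these markers COL1A1 (-0.84) and PECAM1 (-0.89) were lower and KRT19 (1.13) and CDH5 (1.20) higher (log2 fold change, edgeR adjusted p under 0.05). In bulk RNA, fewer cells of a type and less RNA per cell cannot be told apart.

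After BCLAF1 depletion, 12 of the 40 repair genes were lower and 1 was higher at an adjusted p under 0.05 (edgeR quasi-likelihood test, adjusted by Benjamini-Hochberg over all 15907 genes tested). The 12 were ATM, CHEK2, TOPBP1, TP53BP1, MRE11A, XRCC2, FANCC, FANCM, FANCD2, LIG4, XRCC4 and PRKDC, and the 1 higher gene was FANCF. All 40 genes passed the low-count filter. Of all genes tested, 18% were called lower and 17.8% higher, together 35.8%. The share of members called lower was thus 30%, above the share of all genes, and the share called higher was 2.5%, below it. The median log2 fold change of the members (BCLAF1-depleted over control) was -0.26, against 0.02 for all genes tested, and 30 members had a value below 0. The libraries of the groups did not overlap for 17 members that were lower and 4 that were higher, where 26.6% and 25.3% of all genes had no overlap in those directions, 51.9% together. The balance of directions depended on scaling. With library totals alone, 3662 of all genes were lower and 1283 higher (2870 and 2827 with TMM) and their median was -0.21, while 15 members were lower and 0 higher with a median of -0.48.

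The lower level was seen in each BCLAF1-depleted library and was smallest in replicate 1. Against the control mean, the median of the members was -0.17, -0.30 and -0.33 in depleted replicates 1, 2 and 3 on the log2(CPM + 0.5) scale, with 26, 30 and 29 of 40 genes below it. The median of all genes tested stayed between -0.01 and 0.01 in these libraries. Replicate 1 was the depleted library closest to the control libraries for 9 of the 12 lower members, and for 70.2% of all genes called lower. Without it 18 members were lower and 3 higher, while 25.8% and 23% of all genes were then called in those directions. Without control replicate 1, 2 or 3 the lower members numbered 5, 5 and 7, where 9.53%, 9.57% and 10.3% of all genes were called lower, and 0 members were higher, where 8.60%, 8.51% and 9.37% of all genes were. Without depleted replicate 2 or 3, 8 members were lower and 1 higher, where 12.7% and 15.2% of all genes were lower and 12.3% and 15.6% higher. The counts over all genes thus dropped in the same fits.

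**Figure D1:**
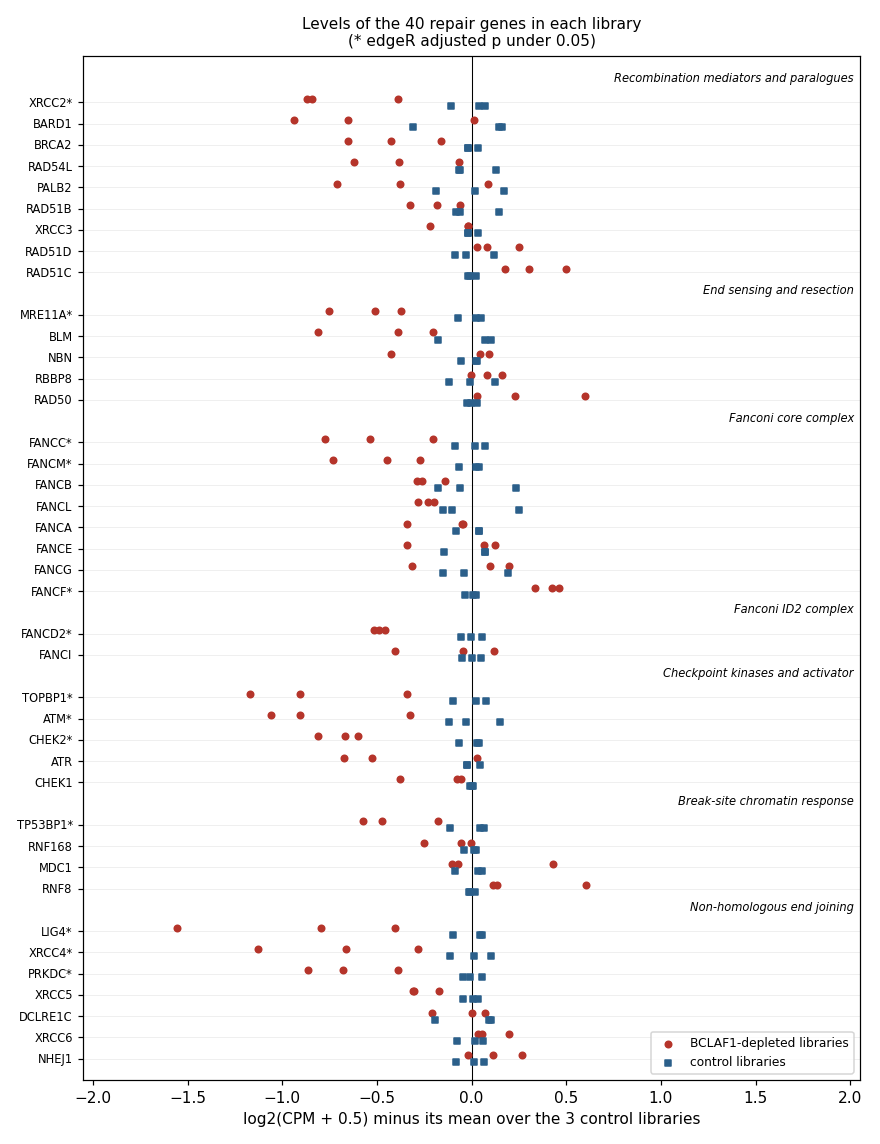
Level of each of the 40 repair genes in every library, as log2(CPM + 0.5) minus its mean over the 3 control libraries. Circles are the 3 BCLAF1-depleted libraries and squares the 3 control libraries, genes are grouped by role, and an asterisk marks an adjusted p under 0.05. For 17 genes every circle lies left of every square, while FANCF, RAD51C, RAD50 and RNF8 lie wholly to the right. RAD50 and RNF8 are at -0.01 on the log2(FPKM + 1) scale. Genes at 1 FPKM or more in at least 3 libraries have a median of -0.23 there.

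Among the checkpoint genes, ATM, CHEK2 and TOPBP1 fell, and ATR and CHEK1 did not pass the test. CHEK2, the kinase that ATM activates and that signals to p53 and the cell cycle (ENSG00000183765.19, chromosome 22, 28687743 to 28742422, minus strand), was at 11.4, 11.99 and 10.3 CPM in the BCLAF1-depleted libraries, against 17.6, 18.9 and 18.8 CPM in the control libraries. Every depleted library was lower than every control library, and the level was 1.64-fold lower (log2 fold change -0.71 ± 0.12, adjusted p = 0.00258). The annotation names 4 pseudogenes of CHEK2, and 301 of its exon bases overlap HSCB on the other strand, so reads may be split or shared. The promoter of CHEK2 in RefSeq (GRCh38.p14, chr22:28741771-28742070, minus strand) is shown because the call of CHEK2 held in every setting tried, and capitals mark CCAAT boxes on either strand.
CHEK2 promoter: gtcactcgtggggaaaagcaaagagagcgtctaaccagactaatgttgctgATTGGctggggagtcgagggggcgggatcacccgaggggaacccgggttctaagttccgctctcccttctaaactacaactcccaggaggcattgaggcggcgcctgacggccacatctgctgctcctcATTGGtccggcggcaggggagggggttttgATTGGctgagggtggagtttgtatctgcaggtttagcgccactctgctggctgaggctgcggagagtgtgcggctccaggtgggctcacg

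ATM, the kinase at the head of the break response (ENSG00000149311.16, chromosome 11, 108222484 to 108369102, plus strand), was at 9.95, 6.48 and 5.76 CPM in the BCLAF1-depleted libraries, against 14.0, 12.3 and 11.5 CPM in the control libraries. The depleted libraries all lay below the controls, with replicate 1 nearest to them (log2 fold change -0.77 ± 0.20, adjusted p = 0.0155). ATM lost its call without depleted replicate 2 (-0.68, adjusted p = 0.0622) and without control replicate 1 (-0.69, adjusted p = 0.0638), and 359 of its exon bases overlap genes on the other strand. TOPBP1, the scaffold that activates ATR (ENSG00000163781.11, chromosome 3, 133598175 to 133662380, minus strand), was at 46.5, 25.9 and 31.3 CPM in the BCLAF1-depleted libraries, against 62.3, 59.9 and 55.0 CPM in the control libraries. Replicate 1 was again the depleted library nearest to the controls, and the fitted level was 1.71-fold lower (log2 fold change -0.77 ± 0.19, adjusted p = 0.0126).

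ATR, the kinase that answers stalled forks, was at 20.01, 13.5 and 12.1 CPM in the BCLAF1-depleted libraries, against 19.3, 20.3 and 19.3 CPM in the control libraries. Depleted replicate 1 lay among the controls and replicates 2 and 3 below them (log2 fold change -0.37 ± 0.18, adjusted p = 0.128). Without depleted replicate 1 the log2 fold change of ATR was -0.64 (adjusted p = 0.00177). That fit called 25.8% of all genes lower, against 18% with all 6 libraries. ATR was called in 2 of 17 alternative settings. CHEK1, the effector of ATR, was at 27.1, 27.6 and 21.9 CPM in the BCLAF1-depleted libraries, against 28.6, 28.8 and 28.5 CPM in the control libraries. Its depleted libraries were lower without overlap, but the difference did not pass the test (log2 fold change -0.17 ± 0.12, adjusted p = 0.317).

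**Figure D2:**
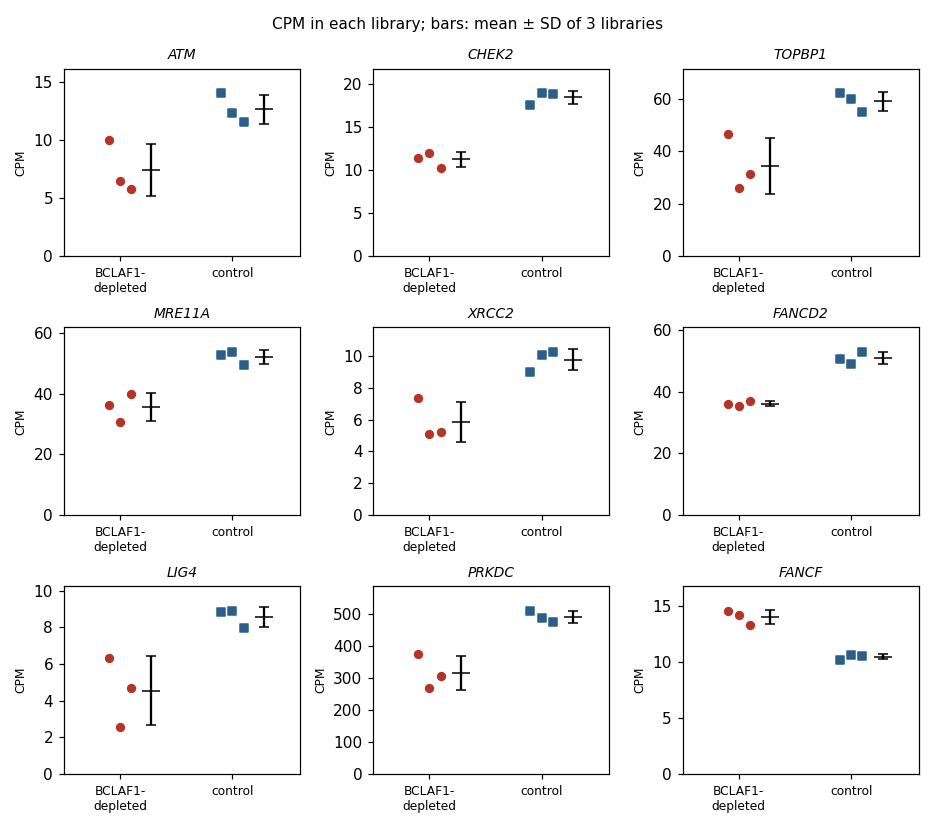
CPM in each library for 8 repair genes that were lower and FANCF, which was higher, with BCLAF1-depleted libraries on the left (circles) and control libraries on the right (squares) of each panel. Bars give the mean ± SD of 3 libraries. In all 9 panels the groups do not overlap.

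Of the 4 genes whose products mark and bind chromatin at the break, TP53BP1 fell and the others did not pass the test. Across all genes 18% were called lower and 17.8% higher. TP53BP1, which shields ends from resection (ENSG00000067369.12, chromosome 15, 43403061 to 43510728, minus strand), was at 43.6, 32.96 and 35.4 CPM in the BCLAF1-depleted libraries, against 51.6, 50.8 and 45.5 CPM in the control libraries. The groups did not overlap (log2 fold change -0.40 ± 0.13, adjusted p = 0.0394). This call was lost without every library except depleted replicate 1 (adjusted p 0.0720 to 0.146). Of its 12991 exon bases, 3732 overlap TUBGCP4, which runs on the other strand. No source used here says whether reads were assigned by strand. MDC1, the adaptor that binds phosphorylated H2AX, had 77.7, 79.5 and 113 CPM after depletion and 86.7, 85.3 and 78.5 CPM in control cells, with depleted replicate 3 alone above the controls (log2 fold change 0.11 ± 0.16, adjusted p = 0.619). The ubiquitin ligase gene RNF8 had 39.2, 38.7 and 54.6 CPM after depletion and 36.2, 35.4 and 35.6 CPM in control cells. Its depleted libraries were all higher, replicate 3 most, and the difference did not pass the test (log2 fold change 0.31 ± 0.15, adjusted p = 0.126). It was -0.01 on the log2(FPKM + 1) scale, where genes at 1 FPKM or more in at least 3 libraries had a median of -0.23. RNF168, the ligase that extends the mark of RNF8, was below the controls in depleted replicates 1 and 2 and among them in replicate 3 (log2 fold change -0.10 ± 0.12, adjusted p = 0.533).

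Of the sensor complex that holds and trims ends, the nuclease gene fell while its partners did not pass the test. MRE11A, the nuclease (ENSG00000020922.11, chromosome 11, 94415578 to 94493908, minus strand), was at 36.3, 30.6 and 39.9 CPM in the BCLAF1-depleted libraries, against 52.8, 53.7 and 49.4 CPM in the control libraries. No depleted library reached a control library (log2 fold change -0.54 ± 0.13, adjusted p = 0.0101), and the call was lost without control replicate 2 (adjusted p = 0.0528). MRE11A shares 225 exon bases with ANKRD49 on the other strand. RAD50, the ATPase that bridges ends, was at 202, 232 and 300.1 CPM in the BCLAF1-depleted libraries, against 202, 198 and 195 CPM in the control libraries. Its depleted libraries were all higher than the controls, by very little in replicate 1 and most in replicate 3 (log2 fold change 0.30 ± 0.16, adjusted p = 0.151). The value was -0.01 on the log2(FPKM + 1) scale, where genes at 1 FPKM or more in at least 3 libraries had a median of -0.23. Without depleted replicate 1, RAD50 passed the test at 0.40 (adjusted p = 0.023). That fit called 25.8% of all genes lower and 23% higher, against 18% and 17.8% with all 6 libraries. NBN, the third member of the complex, was at 72.4, 50.5 and 70.1 CPM in the BCLAF1-depleted libraries, against 69.1, 65.5 and 69.4 CPM in the control libraries, with replicate 2 alone below the controls (log2 fold change -0.08 ± 0.15, adjusted p = 0.698). RBBP8, which encodes the resection factor CtIP, overlapped between the groups (log2 fold change 0.08 ± 0.12, adjusted p = 0.629). BLM, the helicase of long-range resection and junction dissolution, was at 27.7, 24.3 and 17.97 CPM in the BCLAF1-depleted libraries, against 33.6, 34.3 and 28.2 CPM in the control libraries. Its groups did not overlap and its adjusted p lay just above the threshold (log2 fold change -0.46 ± 0.16, adjusted p = 0.0514), and it passed without depleted replicate 1 (-0.62, adjusted p = 0.0116).

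Among the 9 recombination mediator and paralogue genes, XRCC2 was the only one to pass the test. By the same test 18% of all genes were called lower and 17.8% higher. XRCC2, a recombination factor that works with RAD51B, RAD51C and RAD51D (ENSG00000196584.2, chromosome 7, 152644779 to 152676165, minus strand), was at 7.33, 5.10 and 5.21 CPM in the BCLAF1-depleted libraries, against 9.01, 10.03 and 10.3 CPM in the control libraries. Depleted replicates 2 and 3 were at about the same level and replicate 1 lay between them and the controls (log2 fold change -0.73 ± 0.17, adjusted p = 0.0097). The RefSeq promoter of XRCC2 (GRCh38.p14, chr7:152676092-152676391, minus strand) is shown beside that of TOPBP1 (GRCh38.p14, chr3:133661892-133662191, minus strand) because both genes fell and both windows hold an E2F word, in capitals, close to the start site.
XRCC2 promoter: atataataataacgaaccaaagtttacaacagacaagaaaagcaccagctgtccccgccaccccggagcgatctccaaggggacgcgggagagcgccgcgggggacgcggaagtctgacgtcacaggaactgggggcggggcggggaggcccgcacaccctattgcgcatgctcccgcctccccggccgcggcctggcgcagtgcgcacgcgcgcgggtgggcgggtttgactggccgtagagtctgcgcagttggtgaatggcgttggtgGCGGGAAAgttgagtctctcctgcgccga
TOPBP1 promoter: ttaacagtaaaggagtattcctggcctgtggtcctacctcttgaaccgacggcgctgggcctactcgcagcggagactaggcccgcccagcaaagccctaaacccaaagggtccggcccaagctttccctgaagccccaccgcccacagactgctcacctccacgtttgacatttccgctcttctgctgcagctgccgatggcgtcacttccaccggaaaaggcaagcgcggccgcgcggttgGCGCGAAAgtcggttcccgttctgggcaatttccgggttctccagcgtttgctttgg

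The other paralogues of this family did not pass the test. RAD51C, which also acts with XRCC3, was at 55.3, 60.6 and 69.3 CPM in the BCLAF1-depleted libraries, against 48.7, 48.4 and 49.8 CPM in the control libraries. All depleted libraries were higher than all controls, and the adjusted p lay just above the threshold (log2 fold change 0.33 ± 0.12, adjusted p = 0.0519). RAD51C passed without depleted replicate 1 (0.39, adjusted p = 0.0101). RAD51D (0.12 ± 0.13), XRCC3 (-0.08 ± 0.12) and RAD51B (-0.24 ± 0.20) overlapped between the groups. BRCA2, a mediator of homologous recombination (ENSG00000139618.13, chromosome 13, 32315474 to 32400266, plus strand), was at 11.5, 9.53 and 8.08 CPM in the BCLAF1-depleted libraries, against 12.8, 12.8 and 13.3 CPM in the control libraries. Its groups did not overlap, and it missed the threshold by little (log2 fold change -0.42 ± 0.15, adjusted p = 0.0519). Without depleted replicate 1 the value of BRCA2 was -0.58 (adjusted p = 0.00522). PALB2, the bridge between BRCA1 and BRCA2, averaged 8.54 ± 2.54 CPM in depleted cells and 10.7 ± 1.38 CPM in control cells (SD, n = 3), and BARD1, the partner of BRCA1, had 7.10, 4.28 and 3.42 CPM after depletion and 7.92, 7.82 and 5.57 CPM in control cells. Both had replicate 1 among the controls, and neither passed the test (-0.32 ± 0.21 with adjusted p = 0.249 for PALB2, -0.52 ± 0.26 with adjusted p = 0.134 for BARD1). Without that replicate both did, PALB2 at -0.59 (adjusted p = 0.0183) and BARD1 at -0.90 (adjusted p = 0.00698). In the fit without depleted replicate 1, 25.8% of all genes were called lower and 23% higher. With all 6 libraries the shares were 18% and 17.8%. RAD54L, a motor protein of homologous recombination, had 7.84, 9.88 and 6.56 CPM after depletion and 9.93, 11.4 and 9.88 CPM in control cells (log2 fold change -0.36 ± 0.17, adjusted p = 0.115).

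Of the 8 Fanconi core genes, FANCC and FANCM fell and FANCF rose, where 18% of all genes were called lower and 17.8% higher. FANCC (ENSG00000158169.10, chromosome 9, 95099054 to 95426796, minus strand), part of the subcomplex with FANCE and FANCF, was at 8.95, 7.01 and 5.86 CPM in the BCLAF1-depleted libraries, against 10.9, 9.74 and 10.5 CPM in the control libraries. FANCM, the translocase that anchors the core complex on DNA (ENSG00000187790.9, chromosome 14, 45135940 to 45200890, plus strand), was at 7.95, 5.66 and 6.996 CPM in the BCLAF1-depleted libraries, against 10.02, 9.90 and 9.27 CPM in the control libraries. Neither gene had overlapping groups (-0.51 ± 0.17 with adjusted p = 0.0375 for FANCC, -0.50 ± 0.15 with adjusted p = 0.0298 for FANCM). Both calls were lost without any 1 library other than depleted replicate 1 (adjusted p 0.0506 to 0.127). Of the exon bases of FANCC, 582 overlap genes on the other strand.

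FANCF, an adaptor of the core complex (ENSG00000183161.4, chromosome 11, 22622890 to 22625841, minus strand), was at 14.5, 14.2 and 13.3 CPM in the BCLAF1-depleted libraries, against 10.2, 10.6 and 10.48 CPM in the control libraries. The depleted libraries lay close together and all above the controls (log2 fold change 0.42 ± 0.12, adjusted p = 0.0208). FANCF lost its call without control replicate 1 (adjusted p = 0.11), 2 (adjusted p = 0.0909) or 3 (adjusted p = 0.0802), and with library totals alone as scaling (0.21, adjusted p = 0.422). Its annotated transcript has 1 exon, and of its 2952 bases 333 are shared with GAS2 on the opposite strand. The FANCF promoter in RefSeq (GRCh38.p14, chr11:22625774-22626073, minus strand) is shown as that of the 1 member that rose, with its CCAAT boxes in capitals.
FANCF promoter: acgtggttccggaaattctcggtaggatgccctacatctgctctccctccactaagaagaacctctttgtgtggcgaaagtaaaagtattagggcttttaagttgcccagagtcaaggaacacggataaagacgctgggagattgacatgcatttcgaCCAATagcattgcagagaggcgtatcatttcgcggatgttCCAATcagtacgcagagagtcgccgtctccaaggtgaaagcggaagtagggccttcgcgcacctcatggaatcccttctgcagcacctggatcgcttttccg

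The remaining core genes did not pass the test. FANCL, the ubiquitin ligase subunit, had 11.6, 10.9 and 11.3 CPM after depletion and 12.5, 12.02 and 16.1 CPM in control cells, which did not overlap, but by little (log2 fold change -0.26 ± 0.14, adjusted p = 0.182). FANCA (-0.14 ± 0.13), FANCB (-0.28 ± 0.19), FANCE (-0.04 ± 0.18) and FANCG (0.00 ± 0.16) overlapped between the groups, with adjusted p from 0.262 to 0.985. Of the substrate pair, FANCD2 (ENSG00000144554.9, chromosome 3, 10026414 to 10101930, plus strand) was at 36.0, 35.4 and 36.9 CPM in the BCLAF1-depleted libraries, against 50.7, 48.8 and 52.8 CPM in the control libraries. Its libraries were tight within each group and well apart between them (log2 fold change -0.49 ± 0.11, adjusted p = 0.00721), and 261 of its exon bases overlap FANCD2OS on the other strand. FANCI, its partner, was at 118.5, 171 and 152 CPM in the BCLAF1-depleted libraries, against 162.5, 157 and 152 CPM in the control libraries. Replicate 1 was below, replicate 2 above and replicate 3 within the controls (log2 fold change -0.09 ± 0.15, adjusted p = 0.651).

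In the end-joining pathway the ligase and its scaffold fell with the catalytic kinase, and the Ku genes did not pass the test. LIG4, the ligase that seals the ends (ENSG00000174405.12, chromosome 13, 108207439 to 108218368, minus strand), had the largest change of the 40 genes. It was at 6.33, 2.58 and 4.72 CPM in the BCLAF1-depleted libraries, against 8.83, 8.91 and 7.94 CPM in the control libraries, with depleted replicate 2 lowest and replicate 1 nearest to the controls (log2 fold change -0.91 ± 0.26, adjusted p = 0.022). XRCC4, its scaffold (ENSG00000152422.14, chromosome 5, 83077498 to 83353787, plus strand), was at 13.3, 10.1 and 7.18 CPM in the BCLAF1-depleted libraries, against 16.4, 17.5 and 14.99 CPM in the control libraries. Here replicate 3 was lowest, and the groups did not overlap (log2 fold change -0.68 ± 0.20, adjusted p = 0.0242). LIG4 was lost without any 1 control or without depleted replicate 3 (adjusted p 0.052 to 0.064), and XRCC4 without any 1 control or without depleted replicate 2 (adjusted p 0.0551 to 0.0831). PRKDC, which encodes the DNA-PK catalytic subunit (ENSG00000253729.6, chromosome 8, 47773108 to 47960183, minus strand), was at 373.5, 269 and 305 CPM in the BCLAF1-depleted libraries, against 509, 487 and 474 CPM in the control libraries. No depleted library reached a control (log2 fold change -0.63 ± 0.15, adjusted p = 0.0112). PRKDC lost its call without control replicate 1 (adjusted p = 0.0594) or 2 (adjusted p = 0.0517).

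The Ku genes bind broken ends as a ring-shaped pair. XRCC5, which encodes Ku80, was at 374, 340.0 and 341 CPM in the BCLAF1-depleted libraries, against 431, 424 and 409 CPM in the control libraries, without overlap (log2 fold change -0.26 ± 0.13, adjusted p = 0.133). Without depleted replicate 1 its value was -0.33 (adjusted p = 0.0267), in a fit that called 25.8% of all genes lower. XRCC6, which encodes Ku70, was at 754, 845.5 and 765 CPM in the BCLAF1-depleted libraries, against 767, 746 and 698 CPM in the control libraries, with overlap (log2 fold change 0.10 ± 0.14, adjusted p = 0.61), and the annotation names 5 pseudogenes of XRCC6. NHEJ1, the XLF factor that supports ligation, had 7.38, 8.15 and 9.12 CPM after depletion and 7.06, 7.87 and 7.57 CPM in control cells (log2 fold change 0.13 ± 0.14, adjusted p = 0.489). DCLRE1C, the Artemis nuclease, had 7.64, 8.04 and 6.53 CPM after depletion and 8.24, 8.16 and 6.61 CPM in control cells (log2 fold change -0.05 ± 0.15, adjusted p = 0.82).

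To set members of a complex or pathway side by side, the ratio of their CPM was taken within each library, where library scaling cancels. The pairs were chosen after the values were seen, each with the gene of the lower log2 fold change as numerator. The direction of the ratios follows from this choice, so they are descriptions with no test. Other partners, such as LIG4 and XRCC4, which both fell, were not paired. MRE11A to RAD50 was 0.180, 0.132 and 0.133 in the depleted libraries and 0.261, 0.271 and 0.253 in the control libraries. XRCC2 to RAD51C was 0.132, 0.0842 and 0.0752 after depletion and 0.185, 0.207 and 0.206 in control cells. LIG4 to NHEJ1 was 0.857, 0.317 and 0.517 against 1.25, 1.13 and 1.05. In these pairs the depleted libraries all lay below the controls. The kinase pairs varied less between depleted libraries, with ATM to ATR at 0.497, 0.480 and 0.476 in depleted libraries and 0.727, 0.606 and 0.596 in control libraries. CHEK2 to CHEK1 was 0.422, 0.435 and 0.470 against 0.614, 0.658 and 0.660. FANCD2 to FANCI came closest to overlap, at 0.304, 0.208 and 0.242 against 0.312, 0.311 and 0.348. Ratios of PRKDC to XRCC6 (0.495, 0.318 and 0.399 against 0.664, 0.653 and 0.678) and of XRCC5 to XRCC6 (0.496, 0.402 and 0.446 against 0.562, 0.568 and 0.586) were lower in every depleted library.

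**Figure D3:**
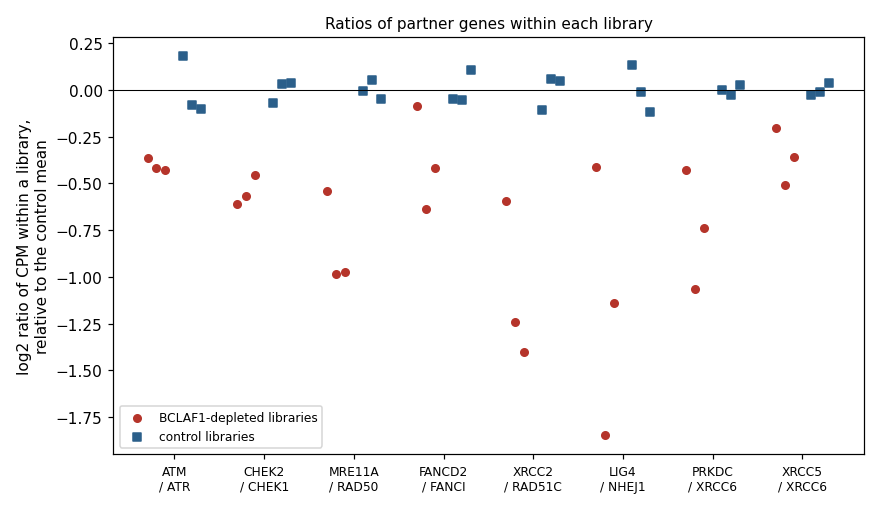
Ratio of the CPM of 2 partner genes within each library, on a log2 scale relative to the control mean. Circles are the BCLAF1-depleted libraries and squares, to their right, the control libraries. For all 8 pairs every circle lies below every square, by least for FANCD2 to FANCI. The pairs were chosen after the values were seen, with the gene of the lower log2 fold change as numerator.

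Compared per length, on the authors' FPKM scale (fragments relative to transcript length and library size), the members spanned a wide range. XRCC6 averaged 212 ± 28.2 FPKM in depleted cells and 242 ± 10.1 FPKM in control cells, XRCC5 74.4 ± 14.1 FPKM in depleted cells and 108 ± 2.28 FPKM in control cells and PRKDC 18.7 ± 5.45 FPKM in depleted cells and 35.0 ± 1.13 FPKM in control cells (SD, n = 3). FANCI at 22.3 ± 3.01 FPKM in depleted cells and 29.3 ± 0.866 FPKM in control cells and RAD50 at 22.9 ± 1.74 FPKM in depleted cells and 23.0 ± 0.312 FPKM in control cells came next. XRCC6 and XRCC5 led in both groups, while PRKDC was the fifth in depleted cells and the third in control cells, and RAD50 the third in depleted cells and the fifth in control cells. In control cells 11 members were at or above 10 FPKM and 11 below 2 FPKM. The least abundant were RAD51B (0.343 ± 0.0404 FPKM in depleted cells and 0.493 ± 0.0577 FPKM in control cells), ATM (0.330 ± 0.142 FPKM in depleted cells and 0.667 ± 0.0666 FPKM in control cells) and BRCA2 (0.653 ± 0.202 FPKM in depleted cells and 1.05 ± 0.0289 FPKM in control cells). Several neighbours in this order, such as BRCA2 and FANCB or RBBP8 and NBN in control cells, differed by less than their spread. CHEK2 was at 4.10 ± 0.759 FPKM in depleted cells and 8.16 ± 0.353 FPKM in control cells. FPKM values of all genes were shifted down in the depleted libraries, with a median log2 difference of -0.23 on the log2(FPKM + 1) scale among genes at 1 FPKM or more in at least 3 libraries.

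Log2 fold changes were lower for genes of greater exon length across the whole data set, and the members are long by this measure. Exon length is that of all annotated exons of a gene merged over its transcripts, and not the length of a transcript. The median exon length was 6442 bases for the members and 4525 bases for all genes with a length. In the quintile of longest genes (7814 bases and above) the median log2 fold change of all genes was -0.19 and 30.1% were called lower. The 12 members there had a median of -0.41, and 6 were called lower. In the middle quintile (3745 to 5415 bases) all genes had a median of -0.03 with 18.9% called lower, and the 6 members had -0.52 with 3 called lower, CHEK2, XRCC2 and LIG4. In the quintile from 5416 to 7812 bases, 2 of 13 members were called lower, where 25.3% of all genes were. The medians there were -0.165 for the members and -0.125 for all genes. From 2290 to 3744 bases, 1 of 9 members was lower and 1 higher, beside 11% and 22.1% of all genes. The medians were -0.044 for these members and 0.131 for all genes. No member lay in the shortest quintile. Among the 40 members the Pearson correlation of log2 fold change with log10 exon length was -0.22 (Spearman -0.19), given as a description across genes that share libraries.

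When the trends with exon length and GC content were removed, 8 members were lower and 4 higher, against 16.1% and 17.8% of all genes, and the median of the members was -0.12. CHEK2 (-0.71, adjusted p = 0.00182), XRCC2 (-0.57, adjusted p = 0.0136), TOPBP1 (-0.56, adjusted p = 0.0206), LIG4 (-0.81, adjusted p = 0.0195), XRCC4 (-0.72, adjusted p = 0.0165), PRKDC (-0.40, adjusted p = 0.0385) and ATM (-0.49, adjusted p = 0.0496) remained lower. RAD54L joined them (-0.50, adjusted p = 0.0321). MRE11A (-0.28), FANCD2 (-0.26), FANCM (-0.24), FANCC (-0.37) and TP53BP1 (-0.18) did not pass (adjusted p 0.0862 to 0.228). ATR (-0.081), BRCA2 (-0.139), BLM (-0.222), PALB2 (-0.185), BARD1 (-0.314) and XRCC5 (-0.105), called lower without depleted replicate 1, were not called here. Their adjusted p was 0.272 to 0.698. FANCF stayed higher (0.36, adjusted p = 0.0281), and RAD51C (0.55, adjusted p = 0.0105), RAD50 (0.60, adjusted p = 0.0232) and RNF8 (0.51, adjusted p = 0.025) became higher. Over all 17 alternative settings, CHEK2 and XRCC2 were called lower in each, and TOPBP1 in 16. Members that gained a call without depleted replicate 1 were called in fewer. BRCA2 and BLM were called in 7, RAD51C in 6, XRCC5 in 4, RAD50 and BARD1 in 3, ATR in 2 and PALB2 in 1. Length and GC content were removed together, and whether either has a part in these calls was not tested.

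**Figure D4:**
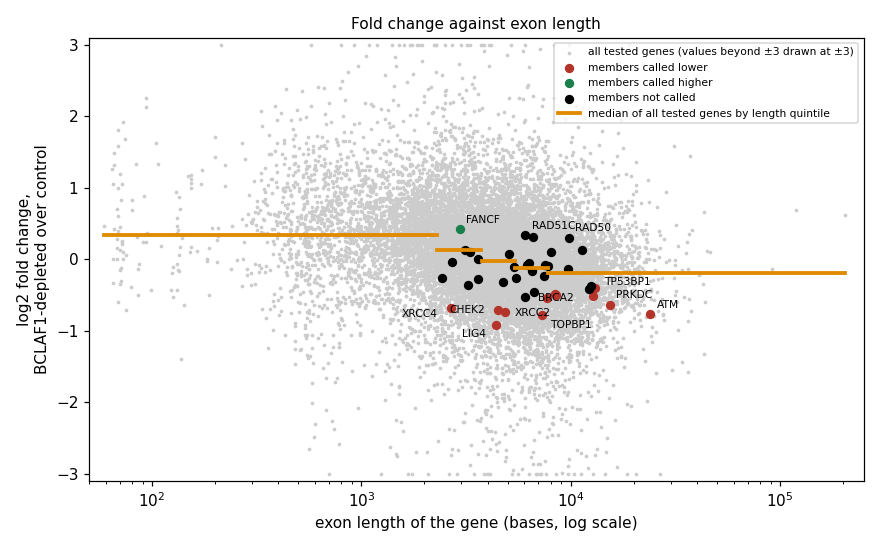
Log2 fold change (BCLAF1-depleted over control, vertical axis) against exon length in bases (horizontal log axis) for all tested genes in grey and the 40 members in colour. Horizontal bars give the median of all tested genes in each length quintile, which runs from 0.35 in the shortest to -0.19 in the longest. The 40 members lie in the 4 upper quintiles.

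**Figure D5:**
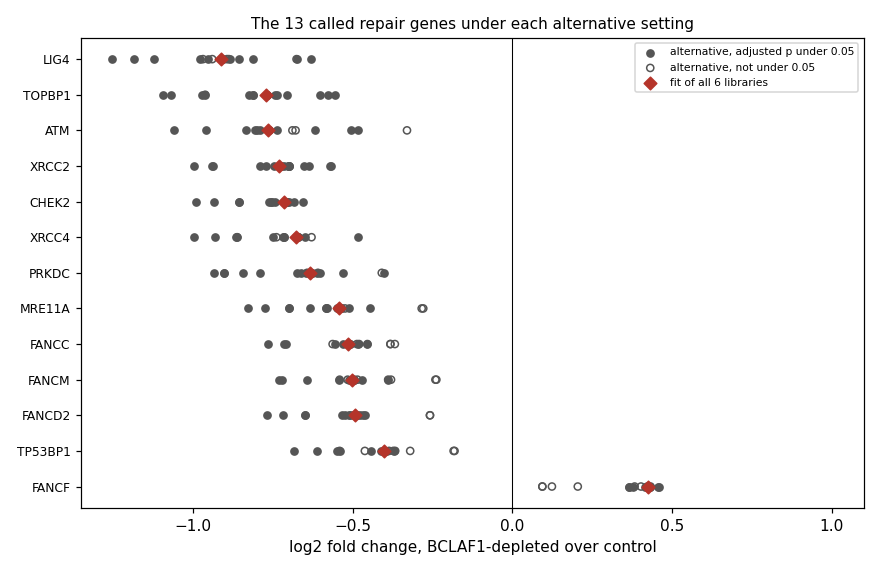
Log2 fold changes (BCLAF1-depleted over control) of the 13 called members in the fit of all 6 libraries (diamonds) and in each alternative setting (circles, filled where the adjusted p is under 0.05). No gene changes sign, and only CHEK2 and XRCC2 have filled circles throughout.

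Several recombination genes are known to be transcribed mostly in S and G2 phase, and cell cycle genes were read beside them. Of 20 G2/M genes 15 were lower and 0 higher, with a median of -0.64, where 18% of all genes were called lower and 17.8% higher. Their summed level was 2835 to 3465 CPM in depleted libraries and 4440 to 4843 CPM in control libraries. Of 20 S phase and G1/S genes 4 were lower, near the 18% of all genes, and 0 higher. They had a median of -0.11 and a summed level of 2480 to 2604 CPM against 2745 to 2884 CPM. MCM6, a subunit of the replicative helicase, was at 89.9, 62.7 and 62.0 CPM in the BCLAF1-depleted libraries, against 119.1, 116 and 115 CPM in the control libraries (log2 fold change -0.71 ± 0.16, adjusted p = 0.00794). PCNA, the sliding clamp, was at 429.7, 417 and 331 CPM in the BCLAF1-depleted libraries, against 433.5, 444 and 392 CPM in the control libraries (log2 fold change -0.11 ± 0.15, adjusted p = 0.595). Of the 40 cell cycle genes 19 were lower in all, beside 18% of all genes. Without control replicate 1 they numbered 12, where 9.53% of all genes were called lower. The part of cell cycle position in the members' levels was not tested.

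Other genes of the same pathways moved in both directions. Of 81 such genes with a single row in the table, 20 were lower and 8 higher, with a median of -0.08, again beside 18% and 17.8% of all genes. The 8 with the largest change included both directions. SLX1A, a nuclease subunit with a near-identical copy SLX1B that makes its counts uncertain, was at 4.30, 5.07 and 5.55 CPM in the BCLAF1-depleted libraries, against 1.95, 1.96 and 2.18 CPM in the control libraries (log2 fold change 1.29 ± 0.17, adjusted p = 0.000746). ZSWIM7, of the Shu complex that assists homologous recombination, was at 37.4, 53.6 and 56.3 CPM in the BCLAF1-depleted libraries, against 27.0, 28.4 and 27.5 CPM in the control libraries (log2 fold change 0.83 ± 0.16, adjusted p = 0.00381). DNA2, the nuclease of long-range resection, was at 9.15, 4.46 and 4.07 CPM in the BCLAF1-depleted libraries, against 11.5, 12.7 and 12.2 CPM in the control libraries (log2 fold change -1.04 ± 0.27, adjusted p = 0.0143), and RECQL, a helicase, at 54.6, 36.6 and 32.8 CPM in the BCLAF1-depleted libraries, against 70.8, 65.7 and 65.3 CPM in the control libraries (log2 fold change -0.70 ± 0.18, adjusted p = 0.0136). WDR48, the cofactor of the USP1 enzyme that removes ubiquitin from FANCD2, was at 12.5, 8.27 and 10.3 CPM in the BCLAF1-depleted libraries, against 21.0, 18.6 and 17.7 CPM in the control libraries (log2 fold change -0.88 ± 0.16, adjusted p = 0.00356). ABRAXAS1, the scaffold of the BRCA1-A complex (-0.86 ± 0.15), SHLD2, of the shieldin complex downstream of TP53BP1 (-0.76 ± 0.18), and the end-joining factor gene APLF (-1.16 ± 0.32) also fell, with adjusted p of 0.00284, 0.0102 and 0.0197. APLF stayed below 2 CPM in every library.

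In the other recombination genes 9 of 28 fell and 4 rose, beside 18% and 17.8% of all genes. BRCA1, named after its value was seen, was at 70.4, 59.3 and 53.3 CPM in the BCLAF1-depleted libraries, against 95.9, 94.9 and 82.8 CPM in the control libraries (log2 fold change -0.58 ± 0.14, adjusted p = 0.0101). The other genes called higher besides SLX1A and ZSWIM7, also named after their values were seen, were SFR1, SWI5, TIPIN, CLSPN, FAAP20 and PAXX (0.45 to 0.69). Without control replicate 1, 2 or 3, the lower genes numbered 8, 9 and 10 of the 81, near the 9.53% to 10.3% of all genes called lower there, and the higher ones 4, 3 and 3, beside 8.51% to 9.37% of all genes. Without depleted replicate 1 they numbered 30 and 13, beside 25.8% and 23% of all genes, and without depleted replicate 2 they numbered 15 and 5, beside 12.7% and 12.3%. With the length and GC trends removed, 10 of the 81 genes were lower and 11 higher, beside 16.1% and 17.8% of all genes. Of the 20 lower genes 10 were then no longer called, among them APLF (-0.90, adjusted p = 0.0602) and BRCA1 (-0.31, adjusted p = 0.0638), and of the 8 higher genes 2 were not, SWI5 (adjusted p = 0.199) and PAXX (adjusted p = 0.463).

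RefSeq promoter windows, from 250 bases before to 50 after a start site, were matched for 36 members with 51 start sites. E2F words (TTTCCCGC, TTTGGCGC, TTTCGCGC or TTTGCCGC on either strand) stood in a window of 6 of these 36 genes, 16.7%, against 3.99% of 27305 genes. They were XRCC2, TOPBP1, FANCD2 and FANCC among the 11 matched genes that fell, and FANCA and XRCC6 among the other 25. CCAAT boxes on either strand stood in 7 of the 11 and 11 of the other 25, against 39.7% of all genes. The words TTTGAA or TTCGAA, the cell cycle homology region found in many G2/M promoters, stood in 2 of the 11 and 1 of the other 25, against 19.5% of all genes. A word in a window is a description and not a binding site.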

How the data were processed

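Tools named in the submitters' processing notes are TopHat2, edgeR and bcl2fastq, and the genome build is GRCh38. Versions, the read counter, its gene models and its use of strand were not given. The deposited files hold whole read counts per gene (29122 genes) and FPKM made by the authors (28878 genes), 1 column per library, 3 libraries a group. Counts were tested with edgeR 4.0.16 (R 4.3.3): TMM scaling, filterByExpr (minimum count 10, minimum total 15), the quasi-likelihood test and Benjamini-Hochberg adjustment over 15907 genes, with a threshold of 0.05. The common coefficient of variation between replicates was 15.3%. CPM are counts over the TMM-scaled library size. Alternatives were DESeq2 1.42.0, limma 3.58.1 on log2(FPKM + 1) and log2(FPKM + 0.1) with at least 1 FPKM in 3 libraries, other scalings and filters, a replicate block, smooth GC and exon length trends (mgcv 1.9.3) and leaving out each library. Gene coordinates and exon lengths came from an annotation of GRCh38 matched by gene ID. The edgeR script was tested on simulated data. Values are given in every library for members past the threshold and for BRCA2, ATR and CHEK1. Library values of further members not called, among them MDC1, RAD50 and XRCC6, are given outside this rule. From the other repair genes, the 8 with the largest called change are named. MCM6, PCNA and further genes outside these rules were named after their values were seen. The members, lists and alternatives were chosen with earlier results of these data known. The leukocyte marker list is not reported here.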

Additional observations from a re-analysis of the deposited data

How the results depend on the processing

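No call of a member changed direction in any setting. CHEK2 and XRCC2 kept their call in all 17 alternatives, TOPBP1 in 16, FANCD2 in 15, MRE11A and PRKDC in 14, LIG4 and XRCC4 in 12, ATM in 12 of the 15 that gave it a value, and FANCC, FANCM, TP53BP1 and FANCF in 9. Counts below are higher then lower. With DESeq2 size factors, a filter of at least 5 CPM in 3 libraries or the DESeq2 Wald test, 2 members were higher in place of 1, and 1 cell cycle gene was higher in place of 0. Library totals alone gave 1283 and 3662 of all genes, 0 and 15 members, 3 and 25 other repair genes, and medians of -0.481 for the members and -0.206 for all genes. Without the low-count filter 0 and 16 members were called, beside 3009 and 3444 of 29122 genes. Removing GC and length trends gave 4 and 8 members, 11 and 10 other repair genes and a members' median of -0.122. In that fit 17.8% and 16.1% of all genes were called. With log2(FPKM + 1), log2(FPKM + 0.1) and log2(FPKM + 1) without a filter, all genes numbered 830 and 3728, 803 and 3593, and 573 and 2057. These were out of 11301, 11301 and 28878 genes tested. In these fits 0 members were higher and 17, 17 and 5 lower, of 37, 37 and 40 tested. In each, 2 other repair genes were higher, and 30, 28 and 11 were lower, of 77, 77 and 81 tested. The members' medians were -0.387, -0.532 and -0.371 (all genes -0.229, -0.286 and -0.014). Leaving out 1 library gave 1383 to 3741 and 1549 to 4195 of all genes, 0 to 3 and 5 to 18 members, 3 to 13 and 8 to 30 other repair genes, 0 to 1 and 12 to 24 cell cycle genes, and members' medians of -0.306 to -0.181. These fits keep fewer samples, and the cause of the other changes was not tested. The labels do not state a paired design, so the replicate number was left out of the main fit. Same-numbered libraries correlated at 0.036, 0.047 and 0.119 in their deviations from group means, and every library correlated best with its own number. The replicate block gave 1 and 15 members, 2886 and 3121 of all genes, and 1 higher cell cycle gene, and called 3 more members lower, BRCA2 (-0.43, adjusted p = 0.0453), BLM (-0.47, adjusted p = 0.0144) and BARD1 (-0.57, adjusted p = 0.0259). The block with the GC and length trends removed gave 4 and 7 members, 11 and 11 other repair genes and a members' median of -0.126. Among members that were not called, the sign turned with library totals for FANCG, MDC1, NHEJ1, RAD51D, RBBP8 and XRCC6, and with the trends removed for CHEK1, DCLRE1C, FANCG, FANCI, NBN, RNF168, XRCC3 and XRCC6.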
